A study of Mus musculus with 6 samples.

Results

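The 9 genes followed here of the NF-kB pathway were followed through the leukocytes of the mouse kidney, in controls and after acute kidney injury from rhabdomyolysis, the breakdown of skeletal muscle. The 9 genes were matched by symbol among the 32285 genes of the deposited matrices, and all 9 were found. They are the subunit genes Nfkb1, Nfkb2, Rel and Relb, the inhibitor genes Nfkbia, Nfkbie, Nfkbiz and Tnfaip3, and the cytokine gene Tnf. The samples were 6 libraries of kidney cells from C57BL/6J mice of 8 weeks, 3 labelled control and 3 labelled rhabdomyolysis, dissociated with collagenase and DNase and sorted for live leukocytes by their surface protein CD45. The labels name no genetic modification, and neither the agent that caused the muscle injury nor the time after it was given in the sources used here. Whether each library came from its own animal is not stated, so every p-value below rests on differences among libraries that could be technical.

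NF-kB is a family of transcription factors that wait in the cytoplasm, bound to inhibitors of the IkB family. Signals from receptors of the TNF, Toll-like and interleukin-1 families activate the IkB kinase complex, IkB is degraded, and the dimers enter the nucleus and switch on cytokines, chemokines, survival genes and their own inhibitors. A second, slower branch runs through the kinase NIK (Map3k14) and the subunits Nfkb2 and Relb. Because Nfkbia and Tnfaip3 are both targets and brakes, their transcripts are widely used as a readout of recent NF-kB activity, and in injured kidney the pathway is known for its part in leukocyte inflammation.

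The libraries held 16666253 to 19427318 gene UMIs (unique molecular identifiers, each counted as 1 captured transcript) in controls and 10816727 to 22656666 in rhabdomyolysis. Of 19693 barcodes called as cells, 12309 held Malat1, an abundant nuclear RNA, at 0.1% of their UMIs or more. The share below that limit, which was left out, was 17.4% to 34.0% in controls and 39.5% to 66.6% in rhabdomyolysis libraries. Cells were assigned to 7 classes by UMIs of marker genes, which took 9681 cells, and 43 of 19650 distinct barcodes occurred in more than 1 library. UMIs were summed per class and library. T cells numbered 460 to 574 per control library and 78 to 106 per rhabdomyolysis library, B cells 223 to 403 and 41 to 87, NK cells 93 to 139 and 27 to 108, macrophages 797 to 1397 and 283 to 458, monocytes 24 to 38 and 213 to 394, dendritic cells 116 to 177 and 16 to 56, and neutrophils 9 to 11 and 78 to 122. The Malat1 limit took out more macrophages than T cells. Without it macrophages numbered 1443 to 1807 per control library and 898 to 1911 per rhabdomyolysis library. T cells then numbered 467 to 583 and 78 to 107. Within each group, every class held its own marker list at a higher share of UMIs than any other class did. Cells were gated on these same lists, so this does not check the names. Monocytes carried more of the macrophage list (0.739% to 0.819% in controls) than of their own (0.371% to 0.382%), as did dendritic cells (0.355% to 0.373% against 0.146% to 0.174%), so these names rest on the gate. Rhabdomyolysis replicate 2 was left out of the dendritic cell fit because it held 16 such cells. In a sum over cells, fewer cells that express a gene and less RNA per cell cannot be told apart.

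Promoters of the members are shown because several of these genes are known targets of the factors they encode. RefSeq promoter windows of mouse build GRCm38.p6 were at hand for 6 of the 9 members, in 9 windows. The 250 bases before each gene start were searched for the kappaB consensus, a motif of 10 letters, read along the gene only. A relaxed form that allows A as well as G at the third base was added after the first search. This form reads the same on either strand, so it also takes in consensus matches on the other strand. Along the gene, the consensus stood in the windows of 4 members (Tnfaip3, Rel, Nfkbie and Nfkb2). It stood in 4.995% of all 32851 windows and in 7.35% of the 9383 genes tested that have a window. The relaxed form stood in those of 5 members, Nfkbia added, in 9.55% of all windows and in 13.5% of those genes. Read on the other strand, the Nfkbia match has G at the third base, so it fits the consensus there. The Nfkb2 window shown holds 3 relaxed matches, of which 2 overlap, and its other windows hold 1 each. Of all windows, 0.180% hold 3 or more. That share counts single windows, so it is not the share of genes whose fullest window holds 3. The Tnfaip3 window shown holds 2 relaxed matches and its other window 0. For both genes the window with the most matches is shown. The 4 windows below belong to the 3 members with the largest rise in T cells and to Tnf, written 5′ to 3′ along the gene, with relaxed matches in capitals. A match describes letters only and is not a measured binding site.
Nfkbia, chr12:55492648-55492897, minus strand: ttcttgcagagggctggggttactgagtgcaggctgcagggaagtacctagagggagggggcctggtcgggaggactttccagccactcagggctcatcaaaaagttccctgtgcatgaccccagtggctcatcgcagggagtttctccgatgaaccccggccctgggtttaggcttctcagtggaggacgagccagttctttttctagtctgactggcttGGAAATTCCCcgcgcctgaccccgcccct
Nfkb2, chr19:46304487-46304736, plus strand: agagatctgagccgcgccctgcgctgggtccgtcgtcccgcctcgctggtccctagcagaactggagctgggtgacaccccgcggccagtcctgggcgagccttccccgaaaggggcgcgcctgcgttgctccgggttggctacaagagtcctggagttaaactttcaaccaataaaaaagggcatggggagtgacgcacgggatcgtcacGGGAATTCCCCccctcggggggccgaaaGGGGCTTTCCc
Tnfaip3, chr10:19015411-19015660, minus strand: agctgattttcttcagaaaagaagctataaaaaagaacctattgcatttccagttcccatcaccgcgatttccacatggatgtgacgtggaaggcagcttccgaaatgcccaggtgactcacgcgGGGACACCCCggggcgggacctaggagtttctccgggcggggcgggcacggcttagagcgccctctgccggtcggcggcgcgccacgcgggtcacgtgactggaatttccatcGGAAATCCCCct
Tnf, chr17:35202008-35202257, minus strand: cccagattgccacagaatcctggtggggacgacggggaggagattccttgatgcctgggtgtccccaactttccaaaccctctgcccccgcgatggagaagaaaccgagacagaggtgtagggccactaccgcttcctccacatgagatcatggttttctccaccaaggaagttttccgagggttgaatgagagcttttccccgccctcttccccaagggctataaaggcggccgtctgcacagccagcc

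The members did not move as one block, and the pattern depended on the cell class. Nfkbia rose in T cells, NK cells, macrophages, monocytes and dendritic cells and was not called in B cells. T cells raised most of the panel, inhibitors and subunits alike, and not Tnf. Macrophages raised Nfkbia, Tnfaip3 and Tnf while the subunit genes Nfkb1 and Rel and the inhibitor gene Nfkbie fell. Changes are log2 ratios of rhabdomyolysis to control from the edgeR quasi-likelihood test on the class sums, called at a Benjamini-Hochberg adjusted p below 0.05 over all genes tested in that class.

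In T cells 7 of the 9 members were called higher and 0 lower, where 5.15% of all 7508 tested genes were called higher and 8.66% in either direction. In NK cells 8 members passed the filter on low counts and 2 were called higher and 0 lower, against 2.47% and 1.58% of genes. In macrophages 3 of 9 were called higher and 3 lower, against 17.2% and 17.5% of genes, and the groups did not overlap for 7 members, as for 49.6% of genes. In monocytes 2 of 9 were called higher and 2 lower, against 11.6% and 10.2% of genes, shares from which the panel did not stand far apart. In dendritic cells 1 of 9 was called higher and 0 lower, against 4.62% and 3.27% of genes (7.89% in either direction), and the groups did not overlap for 2 members, as for 42.2% of genes. In B cells 6 members passed the filter and 0 were called by edgeR, where 5.09% of genes were called in either direction, 2.56% higher and 2.52% lower; none of the 6 was called by DESeq2 or had an unadjusted p below 0.05. The median change of the tested members was 1.55 in T cells, 0.86 in NK cells, -0.27 in macrophages, -0.24 in monocytes, 0.41 in dendritic cells and 0.15 in B cells, and the median of all tested genes lay between -0.05 and 0.02 in these classes.

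**Figure D1:**
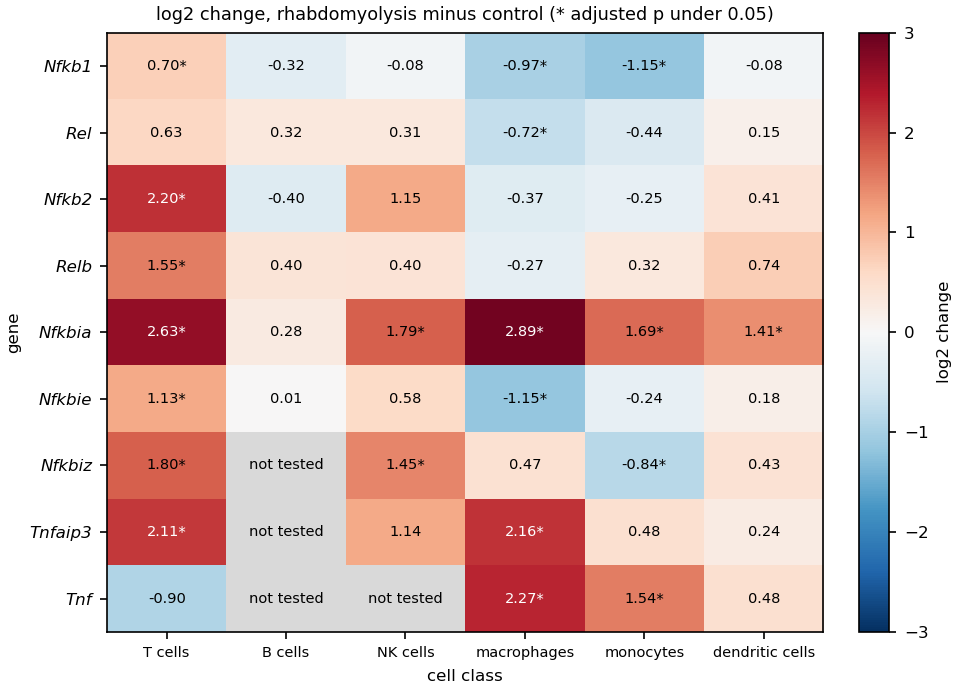
Log2 change from control to rhabdomyolysis of each member (rows) in the 6 classes that were tested (columns), with stars at an adjusted p below 0.05 and grey where too few counts were left for a test. The Nfkbia row is strongly red in all classes but B cells, where its change was 0.28, and the T cell column holds 7 stars.

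Tnf encodes the cytokine TNF, the classical inducer of the pathway and one of its targets. In macrophages Tnf stood at 42.0, 41.3 and 53.4 CPM (counts per 1000000 UMIs of the class sum) in the 3 controls and at 289, 161 and 187 CPM in the 3 rhabdomyolysis libraries. The groups did not overlap, and the change was 2.27 ± 0.27 (log2, standard error, adjusted p = 0.000567 by edgeR). Free RNA, profiled in barcodes of 100 or fewer UMIs, held Tnf at 29.5 to 35.4 CPM in controls and 50.98 to 82.4 CPM in rhabdomyolysis libraries, below the level of the macrophages in each group. The level itself depended on the barcodes kept: with those poor in Malat1 included, the mean Tnf level of rhabdomyolysis macrophages was 129 CPM instead of 212 CPM and their mean Nfkbia level 853 CPM instead of 1324 CPM, and both genes were still called higher.

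In monocytes Tnf measured 48.6, 29.0 and 37.5 CPM in controls and 98.3, 158 and 48.1 CPM in rhabdomyolysis. The lowest rhabdomyolysis library lay just below the highest control on this scale, so the groups overlapped, and the change was 1.54 ± 0.50 (edgeR adjusted p = 0.0358). That call was lost in 9 of 16 other settings, among them library totals, a stricter gate and the subtraction of free RNA, where the change ranged from 0.89 to 1.86. The monocyte sums also differed in make-up. The summed neutrophil markers took 0.00533% to 0.0141% of UMIs in control and 0.112% to 0.178% in rhabdomyolysis monocytes, and the nonclassical monocyte marker Treml4 measured 140.4 to 214 CPM in controls and 36.5 to 79.6 CPM in rhabdomyolysis. Their part in the monocyte results was not tested.

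Neutrophils carried the highest Tnf level of the 7 classes in rhabdomyolysis libraries, 590.3, 337 and 373 CPM, and no range of another class reached theirs. In the 30 control neutrophils, 2 Tnf UMIs were counted among 77370, against 306 among 752664 in rhabdomyolysis, a ratio of 15.7 with a 95% exact interval of 4.32 to 130 that covers counting error only. With so few control cells this class was tested only without the minimum of 20 cells per library, a setting added after seeing the data. There Tnf changed by 4.05 ± 0.69 (edgeR adjusted p = 0.00463) and Tnfaip3 by 2.81 ± 0.69 (adjusted p = 0.0226). These were the 2 of 5 tested members called higher, where 4.72% of genes were called higher. The Tnfaip3 call was lost without control replicate 1 (adjusted p = 0.102) and without control replicate 2 (0.0791), and each gene gave a value in 4 of the 6 settings that leave out 1 library.

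T cells did not raise Tnf. It measured 41.7, 21.6 and 77.6 CPM in control T cells and 19.8, 19.4 and 25.5 CPM in rhabdomyolysis, ranges that overlapped, with a change of -0.90 ± 0.59 (edgeR adjusted p = 0.422). Dendritic cells measured 33.8, 28.0 and 43.5 CPM in controls against 58.0, 39.8 and 43.8 CPM, where the second of the latter is the library left out of the fit, with a change of 0.48 ± 0.30 (adjusted p = 0.391). In B cells only 5 Tnf UMIs were counted in controls and 0 in rhabdomyolysis, and neither B nor NK cells held enough Tnf for a test.

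Receptors and adaptors that feed the pathway, a list of 28 other genes, were called in both directions. In macrophages 1 of 23 tested was called higher and 6 lower (median -0.32), where 34.6% of genes were called in either direction. In T cells 3 of 19 were called higher and 1 lower (median 0.50; 8.66% of genes), and in dendritic cells 3 of 23 higher and 1 lower (median -0.15; 7.89% of genes). Tnfrsf4, the costimulatory receptor OX40, rose by 2.46 ± 0.34 in T cells, and Traf1, a signalling adaptor induced by NF-kB, rose by 1.30 ± 0.17 there. Tnfrsf1a, the main TNF receptor, fell by 1.36 in T cells (edgeR adjusted p = 0.0105). Cd14, the co-receptor for lipopolysaccharide, rose by 2.98 ± 0.34 in monocytes and by 0.92 ± 0.18 in macrophages. Tab2, an adaptor of the kinase TAK1, fell by 0.68 in macrophages and by 1.19 in monocytes.

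Of the 7 kinase genes, those of the IkB kinase complex included, 0 of 6 tested were called higher and 2 lower in both macrophages and monocytes. Of all genes, 17.5% were called lower in macrophages and 10.2% in monocytes. Map3k14, the kinase NIK of the slower branch, fell by 0.70 in macrophages (edgeR adjusted p = 0.0256) and by 1.36 in monocytes (adjusted p = 0.00669). In T cells 1 of 7 kinases was called higher, where 5.15% of genes were. It was Map3k8, which was named outside the rule after its value was seen, at 1.86 ± 0.30.

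Nfkb1 and Rel encode p105/p50 and c-Rel, subunits of the fast branch. In macrophages Nfkb1 measured 96.0, 103 and 108 CPM in controls and 50.2, 48.5 and 53.0 CPM in rhabdomyolysis. All 3 rhabdomyolysis libraries lay at about the same level below all controls, and Nfkb1 fell by 0.97 on the log2 scale (standard error 0.16, edgeR adjusted p = 0.00229). Rel measured 86.7, 91.4 and 71.8 CPM in control macrophages and 40.8, 58.0 and 47.3 CPM in rhabdomyolysis and fell by 0.72 (adjusted p = 0.014), a call that was lost without control replicate 1, control replicate 2 or rhabdomyolysis replicate 1, with an adjusted p of at most 0.0709.

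Monocytes shared the lower Nfkb1 level. The gene measured 160.4, 145 and 225 CPM in controls and 61.3, 64.8 and 81.1 CPM in rhabdomyolysis monocytes. The change of -1.15 ± 0.23 (edgeR adjusted p = 0.00192) was called in all 16 other settings. Rel in monocytes, at 117, 102 and 65.6 CPM against 56.3, 69.7 and 69.8 CPM, changed by -0.44 ± 0.25 (adjusted p = 0.231).

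In T cells Nfkb1 measured 88.6, 83.1 and 96.2 CPM in controls and 94.1, 139 and 140.5 CPM in rhabdomyolysis. The lowest rhabdomyolysis library fell inside the control range on this scale, and above it after trimmed mean scaling, where the change was 0.70 ± 0.18 (edgeR adjusted p = 0.0226). The call was lost in 7 of 17 other settings, among them library totals (0.47 was the lowest change in any setting). Rel changed by 0.63 ± 0.28 in T cells and was not called (adjusted p = 0.205). B cells held the highest mean Rel level of all classes in both groups, 155, 156 and 147 CPM in controls against 147, 132 and 247 CPM.

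Nfkb2 (p100/p52) and Relb form the main dimer of the slower branch. In T cells Nfkb2 measured 28.9, 19.4 and 24.3 CPM in controls and 114, 81.3 and 105 CPM in rhabdomyolysis. The groups lay far apart and Nfkb2 rose by 2.20 ± 0.23 (edgeR adjusted p = 1.44e-05). Relb measured 36.8, 29.6 and 34.6 CPM in control T cells and 89.2, 54.2 and 109.8 CPM in rhabdomyolysis and rose by 1.55 ± 0.24 (adjusted p = 0.000631).

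Outside T cells neither gene was called, although Nfkb2 was called lower in macrophages with the barcodes poor in Malat1 kept (-0.62, edgeR adjusted p = 0.0289) and Relb higher in dendritic cells without rhabdomyolysis replicate 1 (1.11, adjusted p = 0.00967). Nfkb2 in NK cells, at 27.3, 18.5 and 34.0 CPM against 74.4, 42.1 and 49.0 CPM, did not overlap between groups, as 23.7% of genes there did not, and its change of 1.15 ± 0.38 had an adjusted p of 0.118 by edgeR. In macrophages Nfkb2 measured 33.2, 29.8 and 25.5 CPM in controls and 23.1, 18.2 and 25.3 CPM in rhabdomyolysis, with a change of -0.37 ± 0.20 (adjusted p = 0.183). B cells held the highest Nfkb2 level among controls, 75.5 to 117 CPM, above the range of every other class. In rhabdomyolysis the T cell range of 81.3 to 114 CPM overlapped the B cell range of 50.2 to 82.4 CPM.

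**Figure D2:**
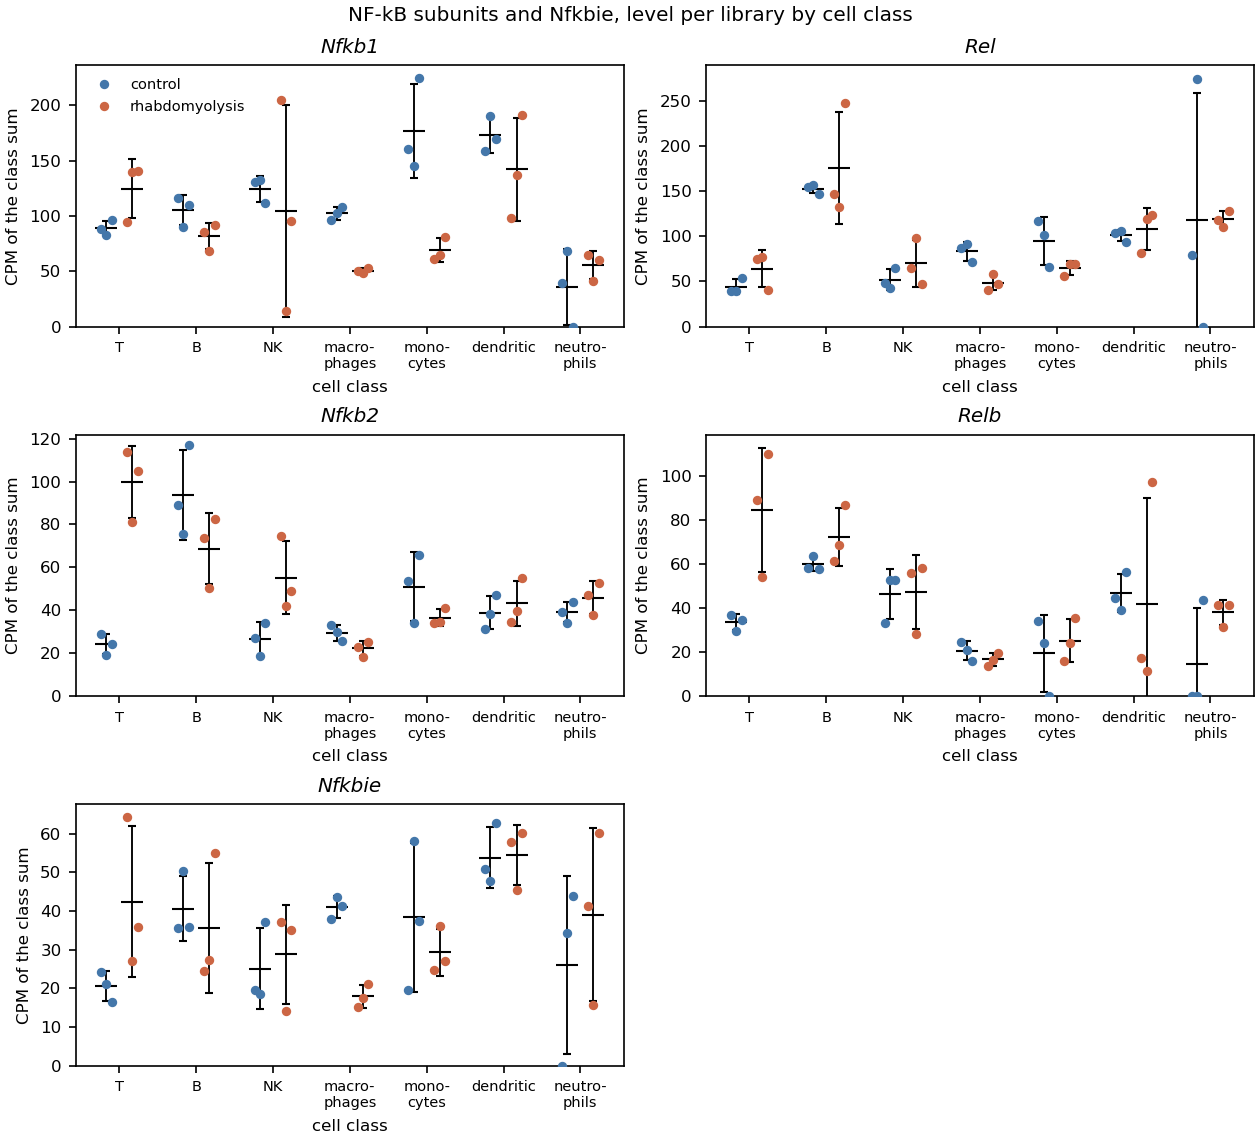
CPM of the 4 subunit genes and Nfkbie (panels) in each library (points) for 7 classes, with bars at the mean and SD of 3 libraries; the y axes start at 0 and differ between panels. Nfkb2 in T cells lies at 19.4 to 28.9 CPM in controls and at 81.3 to 114 CPM in rhabdomyolysis, while Nfkb1 in macrophages falls to 48.5 to 53.0 CPM.

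Nfkbia encodes IkB-alpha, the inhibitor that NF-kB re-induces within its own feedback loop. In T cells it measured 244, 267 and 264 CPM in controls and 1496, 1335 and 1407 CPM in rhabdomyolysis. Replicates of a group lay close together, and the change was 2.63 ± 0.14 (edgeR adjusted p = 8.84e-09). In macrophages Nfkbia measured 171, 209 and 179 CPM in controls and 1814, 1009 and 1149 CPM in rhabdomyolysis, with a change of 2.89 ± 0.26 (adjusted p = 0.000192).

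Monocytes held 613, 499 and 469 CPM of Nfkbia in controls and 1780.2, 1668 and 1164 CPM in rhabdomyolysis, and dendritic cells 463, 513 and 453 CPM against 1455, 1542 and 1081 CPM. Neither class overlapped between groups, and the changes were 1.69 ± 0.18 (edgeR adjusted p = 6.14e-06) and 1.41 ± 0.14 (adjusted p = 1.26e-05). In NK cells the gene measured 201, 222 and 315 CPM in controls and 1219, 407 and 663 CPM in rhabdomyolysis. NK libraries were the most scattered, yet all 3 rhabdomyolysis libraries lay above all controls, with a change of 1.79 ± 0.30 (adjusted p = 0.00376) that missed the threshold without control replicate 2 (adjusted p = 0.0534).

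B cells kept an overlapping Nfkbia level, 428, 391 and 433 CPM in controls and 319, 457 and 613 CPM in rhabdomyolysis. The change of 0.28 ± 0.18 was not called (edgeR adjusted p = 0.445). Among controls the order from the top was neutrophils, monocytes, dendritic cells, B cells, T cells, NK cells and macrophages, and monocytes overlapped dendritic cells, as T cells did NK cells and NK cells did macrophages. In rhabdomyolysis libraries neutrophils led at 5626 to 7201 CPM, monocytes, T cells, dendritic cells and macrophages followed with overlapping ranges, and B cells came last. Neutrophils themselves measured 3310.1, 1921 and 5868 CPM in controls and 7201, 5836 and 5626 CPM in rhabdomyolysis, ranges that overlapped. Free RNA held Nfkbia at 129 to 157 CPM in controls and at 405 to 596 CPM in rhabdomyolysis, so that the B cell sums lay near the level of free RNA in rhabdomyolysis while the classes called higher lay above it, with 1 NK library at 407 CPM as the exception. Judged by myeloid genes, free RNA made up an estimated 2.27% to 4.24% of UMIs in rhabdomyolysis B cells. The estimate was 1.40% to 8.35% in T cells and 4.81% to 25.3% in NK cells of those libraries.

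Nfkbie encodes IkB-epsilon, a slower feedback inhibitor. It measured 38.0, 43.7 and 41.3 CPM in control macrophages and 15.3, 17.4 and 21.0 CPM in rhabdomyolysis, and fell by 1.15 (standard error 0.19, edgeR adjusted p = 0.00232), opposite to Nfkbia in the same cells. In T cells Nfkbie measured 24.1, 21.1 and 16.5 CPM in controls and 64.4, 27.1 and 35.8 CPM in rhabdomyolysis. All 3 rhabdomyolysis libraries lay above the controls and 1 lay well above the others, with a change of 1.13 ± 0.33 (adjusted p = 0.0458) that lost its call in 8 of 16 other settings.

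Nfkbiz encodes IkB-zeta, a nuclear member of the family that helps NF-kB at a subset of genes. In T cells it measured 35.1, 29.0 and 34.1 CPM in controls and 109, 92.9 and 102 CPM in rhabdomyolysis and rose by 1.80 ± 0.20 (edgeR adjusted p = 2.63e-05). In monocytes it measured 228, 228 and 159 CPM in controls and 88.4, 115 and 113 CPM in rhabdomyolysis and fell by 0.84 (adjusted p = 0.00828). These 2 classes moved apart without overlap of their groups. NK cells were called higher (1.45 ± 0.38, adjusted p = 0.0407) although 1 rhabdomyolysis library, at 28.1 CPM, lay inside the control range of 21.5 to 43.3 CPM, and the call was lost in 8 of 16 other settings. In macrophages the ranges of 139 to 243 CPM and 157 to 303 CPM overlapped (0.47 ± 0.28, adjusted p = 0.23); without rhabdomyolysis replicate 2 the change was 0.78 and was called, and with the barcodes poor in Malat1 kept it was -0.05.

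Tnfaip3 encodes A20, the ubiquitin editor that shuts off signalling above the IkB kinases. In T cells Tnfaip3 measured 57.0, 60.4 and 73.9 CPM in controls and 193, 267 and 255 CPM in rhabdomyolysis and rose by 2.11 ± 0.18 (edgeR adjusted p = 1.32e-06). In macrophages it measured 12.8, 10.6 and 10.6 CPM in controls and 45.3, 72.5 and 29.1 CPM in rhabdomyolysis and rose by 2.16 ± 0.33 (adjusted p = 0.00171). The folds were alike, but the level in T cells was above that in macrophages in both groups. NK cells, at 35.1, 39.7 and 64.9 CPM against 74.4, 98.2 and 93.3 CPM, did not overlap between groups and missed the threshold (1.14 ± 0.31, adjusted p = 0.0511), but were called in 6 other settings, with changes of 1.10 to 1.42. Monocytes (0.48 ± 0.38) and dendritic cells (0.24 ± 0.42) were not called.

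**Figure D3:**
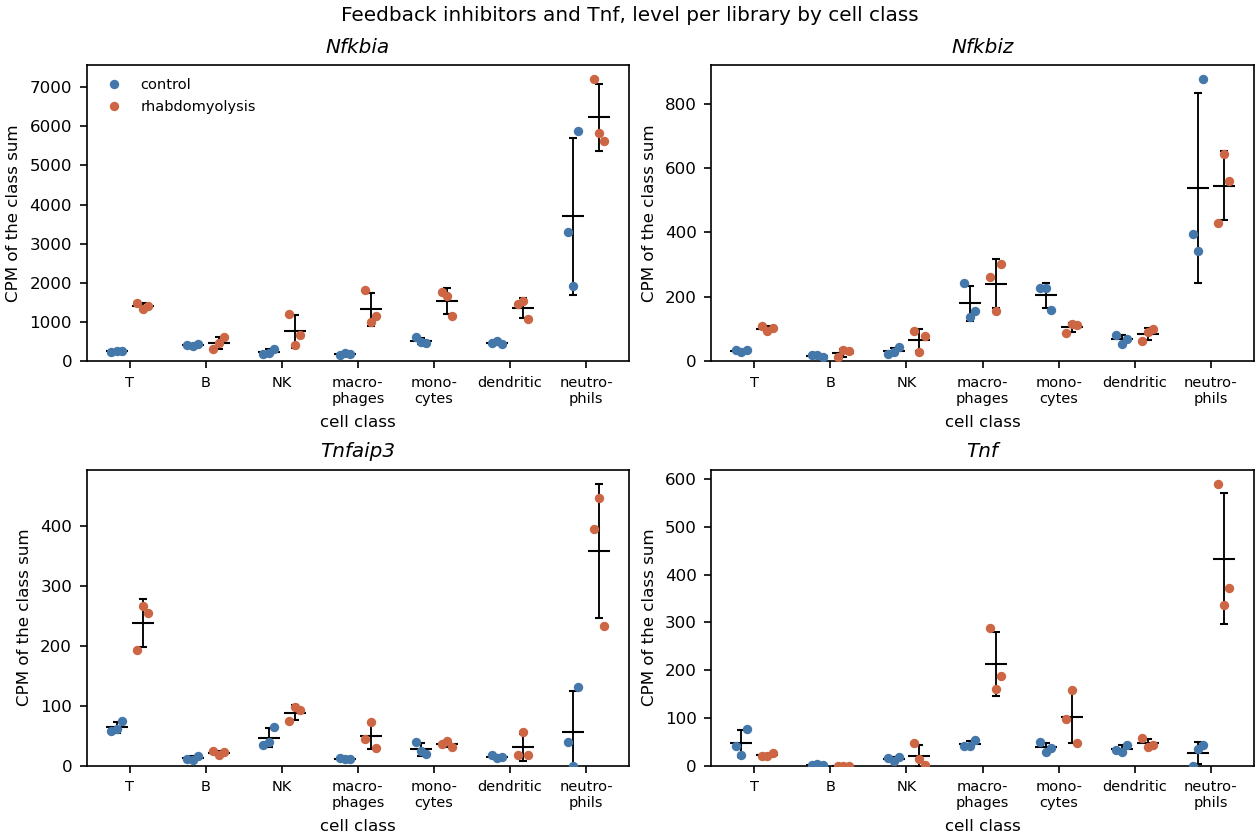
CPM of Nfkbia, Nfkbiz, Tnfaip3 and Tnf (panels) in each library (points) for 7 classes, with bars at the mean and SD of 3 libraries; the y axes start at 0 and differ between panels. Tnf rises in macrophages from 41.3 to 53.4 CPM to 161 to 289 CPM and stays at 0 in rhabdomyolysis B cells.

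The share of cells with a UMI gave the same picture where every cell was thinned to 1000 UMIs, which takes depth out of the comparison. Nfkbia was seen in 17.9%, 15.6% and 15.7% of control T cells and in 60.6%, 50% and 55.9% of rhabdomyolysis T cells. In macrophages Nfkbia was seen in 12.5%, 16.8% and 15.4% of control cells and in 58.9%, 49.3% and 44.6% of rhabdomyolysis cells. In B cells the shares for Nfkbia were 32.4% to 34.3% and 29.4% to 32.5%. Every two-sided exact permutation p of these shares was 0.1 or more, and 0.1 is the smallest that 3 against 3 libraries allow.

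Tnf was seen in 3.73%, 3.97% and 4.87% of control macrophages and in 19.4%, 10.7% and 13.01% of rhabdomyolysis macrophages after thinning. In rhabdomyolysis neutrophils Tnf was seen in 27.5%, 27.4% and 22.6% of cells. In B cells Tnf was seen in 0% to 0.251% of cells. Their median depth was 2947 to 3172 UMIs in controls and 1890.0 to 2553 in rhabdomyolysis, against 3532 to 4061 and 4645.5 to 6639 in macrophages. Judged by kidney tubule genes, free RNA made up an estimated 10.7% to 23.7% of UMIs in rhabdomyolysis macrophages and 9.27% to 17.0% in neutrophils. The B cell estimate, from myeloid genes, was lower, so the B cell share is no full background for these classes. Tnfaip3 was seen in 4.42% to 6.63% of control T cells and 21.1% to 25.6% of rhabdomyolysis T cells, and in 1.02% to 1.39% of control macrophages against 1.86% to 5.45%.

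In T cells and macrophages more cells held several members. Such a share also rises when single members are seen in more cells. It was not compared with the shares of single members, so it does not show that members go together. After thinning, 3 or more of the 9 members were detected in 1.36% to 2.28% of control T cells and in 12.7% to 13.4% of rhabdomyolysis T cells. In macrophages those shares were 1.85% to 2.76% and 4.77% to 8.55%, while the ranges overlapped in B cells (2.26% to 5.09% and 0% to 5.88%), NK cells (1.45% to 4.65% and 0% to 11.2%), monocytes (0% to 13.9% and 4.78% to 11.6%) and dendritic cells (5.22% to 7.39% and 0% to 17.9%). In neutrophils the shares were 0% to 22.2% in controls, with 9 to 11 cells per library, and 29.0% to 32.7% in rhabdomyolysis. T cells with no member detected made up 58.4% to 67.0% of cells in controls and 22.5% to 26.8% in rhabdomyolysis, without overlap.

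**Figure D4:**
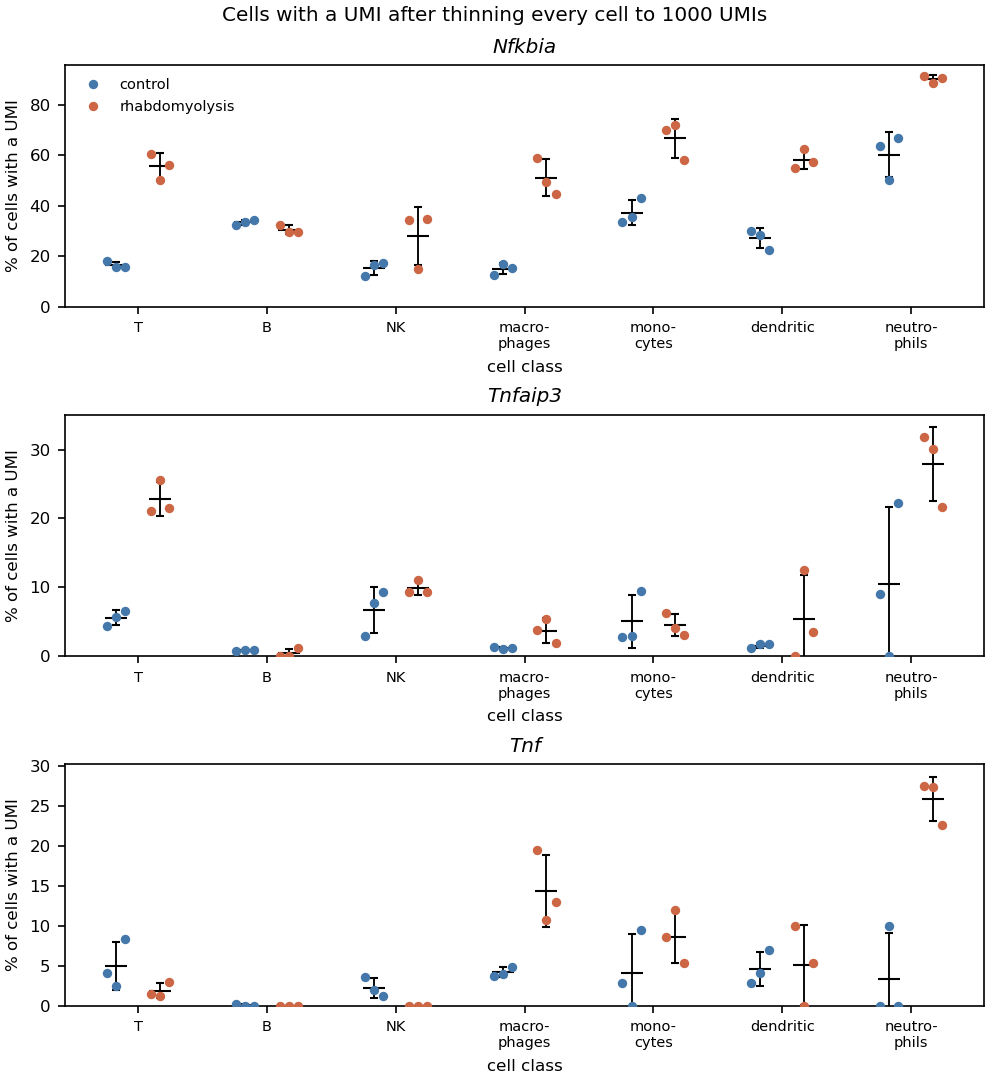
Percent of cells with at least 1 UMI of Nfkbia, Tnfaip3 and Tnf (panels) in each library (points) after every cell was thinned to 1000 UMIs, with bars at the mean and SD of 3 libraries. T cells with Nfkbia go from 15.6% to 17.9% in controls to 50% to 60.6% in rhabdomyolysis, and B cells stay at 29.4% to 34.3%.

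Whether the change differed between classes was tested in 1 edgeR fit over 35 sums of 6 classes with the library as a block, so that each contrast compares classes within the same libraries. All 9 members had an adjusted p below 0.05 for any difference between classes, against 27.2% of the 9537 genes tested. The smallest were those of Nfkbia (adjusted p = 1.01e-08) and Nfkb2 (4.64e-08), and the largest that of Relb (0.0127). Set against macrophages, 7 members differed in T cells, where 19.4% of genes did. Nfkb2 changed by 2.43 ± 0.28 more in T cells than in macrophages (edgeR adjusted p = 1.06e-08), Nfkbie by 2.12 ± 0.40 more, Relb by 1.59 ± 0.35 more and Nfkb1 by 1.499 ± 0.28 more. Tnf changed by -3.17 ± 0.47 in T cells relative to macrophages (adjusted p = 2.96e-06). The feedback genes Nfkbia (-0.35 ± 0.27, adjusted p = 0.411) and Tnfaip3 (-0.13 ± 0.26, adjusted p = 0.807) were the 2 members not called in that contrast.

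Dendritic cells differed from macrophages in 5 members, where 10.4% of genes did: Nfkbia (-1.57 ± 0.29), Tnfaip3 (-1.74 ± 0.48) and Tnf (-1.56 ± 0.46) changed less, and Rel (0.85 ± 0.29) and Nfkbie (1.28 ± 0.37) differed upward. B cells differed in 2 members, where 15.5% of genes did, with Nfkbia at -2.72 ± 0.29 (edgeR adjusted p = 2.21e-09) and Rel at 0.80 ± 0.27. NK cells differed in 3 members (9.42% of genes), Nfkbia at -1.17 ± 0.30, Nfkbie at 1.67 ± 0.52 and Nfkb2 at 1.40 ± 0.40. Monocytes differed in 2 members (3.5% of genes), Nfkbia at -1.09 ± 0.28 and Nfkbiz at -1.22 ± 0.27.

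Of the 6 other IkB proteins and subunits, 5 were tested in T cells, macrophages and dendritic cells. In T cells 1 was called higher (5.15% of genes), in macrophages 1 (17.2%) and in dendritic cells 2 (4.62%), with 0 called lower in these classes. Bcl3, an atypical IkB protein that works with p50 and p52, rose by 1.78 ± 0.42 in T cells and by 1.56 ± 0.40 in dendritic cells. Nfkbid, another nuclear IkB protein, rose by 1.07 ± 0.28 in macrophages and by 1.33 ± 0.38 in dendritic cells. Both fell outside the rule for named genes because of low levels and were chosen after their values were seen.

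Among 18 ubiquitin editors and other brakes, 4 of 17 tested were called higher in T cells and 0 lower, against 5.15% and 3.5% of genes. In monocytes 0 of 18 were called higher and 4 lower, against 11.6% and 10.2% of genes. Macrophages had 2 of 18 called higher and 3 lower, against 17.2% and 17.5% of genes. Zfp36, which destabilises Tnf and other cytokine transcripts, rose by 1.37 ± 0.20 in T cells and by 0.69 ± 0.20 in macrophages and fell by 0.47 in monocytes. Birc2, the ubiquitin ligase cIAP1, rose by 1.13 ± 0.19 in T cells. Itch, a ubiquitin ligase that works with A20, fell by 1.32 in macrophages (edgeR adjusted p = 0.00574). Tnip3, an A20-binding protein, fell by 1.72 in monocytes (adjusted p = 0.00157).

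Target genes were called higher more often than lower in every class tested. Of the 32 listed, 15 of 23 tested were called higher and 3 lower in macrophages, with a median change of 1.30. Monocytes had 17 of 25 called higher and 1 lower (median 1.54), and dendritic cells 10 of 25 and 1 (median 0.84). T cells had 6 of 15 called higher and 0 lower (median 0.69), NK cells 4 of 11 and 0 (median 0.91), and B cells 2 of 9 and 0 (median 0.51). Of all genes, 17.2% were called higher in macrophages, 11.6% in monocytes, 4.62% in dendritic cells, 5.15% in T cells, 2.47% in NK cells and 2.56% in B cells; whether the list differed between classes was not tested. The list and its direction were known from earlier results of these data and are no independent support.

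In macrophages the neutrophil-attracting chemokines Cxcl2 and Cxcl1 rose by 6.00 ± 0.55 and 5.30 ± 0.85, and the early survival gene Ier3 by 5.51 ± 0.55. Monocytes raised Cxcl2 by 5.56 ± 0.31 and Ccl2, which attracts monocytes, by 4.72 ± 0.23. In dendritic cells Il1b, the cytokine interleukin-1 beta, rose by 3.39 ± 0.25. T cells raised Gadd45b, a stress gene that protects from cell death, by 1.83 ± 0.18 and Icam1, an adhesion molecule, by 1.34 ± 0.23. NK cells raised Ccl3, a chemokine of activated killer cells, by 2.0002 ± 0.39. In B cells Cxcl2 went from 0 UMIs in controls to 166 UMIs in rhabdomyolysis, at least 290-fold higher against a floor of 3 counts over the control group. The summed macrophage markers took 0.166% to 0.178% of B cell UMIs in controls and 0.190% to 0.420% in rhabdomyolysis, and their part in that count was not tested.

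Of the 8 genes of Tnf processing and the TNF family, 1 of 6 tested was called higher and 2 lower in macrophages. Of all genes there, 17.2% were called higher and 17.5% lower. T cells had 1 of 5 higher and 1 lower (5.15% and 3.5% of genes). NK cells had 0 of 3 and 2 (2.47% and 1.58%), and monocytes 0 of 5 and 2 (11.6% and 10.2%). The genes named next all fell. Adam17, the protease that sheds TNF from the cell surface, fell by 1.01 in macrophages (edgeR adjusted p = 0.00675), one of the classes where Tnf rose. Tnfsf10, the death ligand TRAIL, fell by 1.13 in T cells and by 2.57 in NK cells. Ltb, a membrane ligand of the slower branch, fell by 1.62 in NK cells.

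Immediate early genes, many of which tissue dissociation can also induce, were called in every class tested. In T cells 10 of 22 tested were called higher and 2 lower, against 5.15% and 3.5% of genes. NK cells had 6 of 23 and 0 (2.47% and 1.58% of genes). Macrophages had 8 of 25 and 3 (17.2% and 17.5%), and dendritic cells 8 of 25 and 4 (4.62% and 3.27%). Monocytes had 5 of 24 and 9 (11.6% and 10.2%), and B cells 4 of 21 and 4 (2.56% and 2.52%). Socs3, a brake on cytokine signalling, rose by 4.45 ± 0.20 in T cells and by 4.41 ± 0.32 in B cells, where Nfkbia was not called. The heat shock gene Hspa1a fell by 3.67 in macrophages (29620 UMIs in controls and 1219 in rhabdomyolysis) and went from 2455 UMIs to 1 UMI in T cells. Its part, and that of dissociation, in the changes of the panel was not tested.

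The T cell sums changed in make-up as well. The T cell marker list took 0.942% to 1.02% of their UMIs in controls and 0.458% to 0.660% in rhabdomyolysis, with no marker of the list at 0, and Ly6c2, a surface protein found on memory T cells and on monocytes, measured 369 to 449 CPM and 27.1 to 38.3 CPM. Of the lists of other classes, that of NK cells took 0.130% to 0.155% of T cell UMIs in controls and 0.0468% to 0.0728% in rhabdomyolysis, that of B cells 0.0205% to 0.0281% and 0.00503% to 0.0117%, and that of monocytes 0.0540% to 0.0574% and 0.00545% to 0.0117%, all lower without overlap. The macrophage list took 0.0871% to 0.174% and 0.0769% to 0.235%, ranges that overlapped. The part of this make-up in the T cell changes was not tested. A setting added after seeing the data kept only T cells with a Cd8 and no Cd4 UMI. There 3 of the members were called, Nfkbia at 1.76, Nfkbiz at 1.78 and Tnfaip3 at 2.17, where 229 of 4403 tested genes were called. Macrophages without a Ccr2 UMI gave 6 called members, as did all macrophages, where 34.6% of genes were called in either direction. Ccr2 marks monocyte-derived cells, but a cell that expresses it can show no UMI. The setting therefore does not remove all such cells, and their part in the macrophage changes was not tested.

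Over all called cells of a library, which mixes the classes in their changed proportions, Nfkbia (2.70 ± 0.18), Tnf (2.24 ± 0.31), Tnfaip3 (1.53 ± 0.22) and Nfkbiz (0.84 ± 0.16) were called higher and 0 members lower, where 24.1% of genes were called higher and 45.7% in either direction. This count of lower members depended on the scaling: with library totals Nfkb1 (-0.62, edgeR adjusted p = 0.00896) and Nfkbie (-0.48, adjusted p = 0.0188) were called lower, as they were with the barcodes poor in Malat1 kept (-0.51 and -0.44). Nfkb1 was also called lower without rhabdomyolysis replicate 3 (-0.52), and Nfkb2 higher without rhabdomyolysis replicate 2 (0.43).

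By the correlation of log2 CPM over the 35 sums, the genes with a pattern most like that of Nfkbia were Nme2 (Pearson r = 0.89), Ier2 (0.85) and Tomm20 (0.84). For Tnf they were Tmem256 (0.90), Rtp4 (0.87) and Ddost (0.87), for Tnfaip3 Mbd2 (0.82), Sec11a (0.78) and Hcst (0.76), and for Nfkb2 Rps19 (0.74), Klf2 (0.70) and Rps26 (0.66). These correlations describe sums that share libraries, depth and class differences, and no test was made of them.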

How the data were processed

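The deposited files hold raw UMI counts per gene and barcode for 6 libraries, made with Cell Ranger 4 on genome build mm10, per the file headers and the submitters' processing notes; barcodes were not filtered for cells. Cells were called by a test against free RNA (barcodes of at most 100 UMIs) at a false discovery rate of 0.001, with at least 500 UMIs, 200 genes and at most 15% mitochondrial UMIs. Doublets were removed by neighbours among simulated doublets, at an expected 0.8% per 1000 cells. Barcodes with under 0.1% Malat1 were left out. A class needed at least 2 of its markers, and a library at least 20 cells of it. Class sums were tested with edgeR 4.0.16 (quasi-likelihood, trimmed mean scaling, filter on low counts, Benjamini-Hochberg adjustment) in R 4.3.3, and DESeq2 1.42.0 was an alternative. The scripts were tested on simulated counts of T cells and macrophages. Of 100 simulated 2-fold changes, 20 were recovered in T cells and 44 in macrophages. Of 4-fold changes, 87 of 100 were recovered in T cells and 99 of 99 in macrophages. A change that was not called is therefore not shown to be absent. Free RNA from other cells adds UMIs to every class, and gates on marker UMIs favour deep cells.

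All 9 members are described. From each list of other pathway genes, up to 4 called genes per class with the largest change, a mean log2 CPM of at least 5 and no overlap between groups could be named. The members and lists were chosen with earlier results of these data known. Intervals and floors cover counting error only. Antibody tags were not used here.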

Additional observations from a re-analysis of the deposited data

Results flagged for a closer look

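The tested differences of the change between classes, each set against macrophages within the same libraries by edgeR and called at an adjusted p below 0.05, are listed by class. In T cells the change was higher than in macrophages by 2.43 for Nfkb2, 2.12 for Nfkbie, 1.59 for Relb, 1.499 for Nfkb1, 1.20 for Rel and 1.18 for Nfkbiz (log2), and for Tnf the difference was -3.17. In NK cells the differences were 1.67 for Nfkbie, 1.40 for Nfkb2 and -1.17 for Nfkbia. In B cells they were -2.72 for Nfkbia and 0.80 for Rel. In dendritic cells they were -1.74 for Tnfaip3, -1.57 for Nfkbia, -1.56 for Tnf, 1.28 for Nfkbie and 0.85 for Rel. In monocytes they were -1.22 for Nfkbiz and -1.09 for Nfkbia.

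Barcodes too small to be cells also carried more of both genes in every rhabdomyolysis library than in any control. Nfkbia had a mean of 515 CPM in the free RNA of rhabdomyolysis libraries and 143 CPM in that of controls. Tnf had a mean of 69.6 CPM in rhabdomyolysis and 32.0 CPM in controls.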

How the results depend on the processing

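Over single members and settings, 353 values of called changes kept their direction and call and 42 kept the direction but lost the call; of changes not called, 503 stayed so, 16 became called and 31 changed sign. Called changes of Nfkbia, Nfkbiz and Tnfaip3 in T cells, of Nfkbia, Nfkbie, Nfkb1, Tnfaip3 and Tnf in macrophages, and of Nfkbia in monocytes and dendritic cells kept their call in every setting run. In T cells with a Cd8 and no Cd4 UMI, chosen after seeing the data, 3 members and 229 of 4403 tested genes were called. There Nfkb2 (1.53, adjusted p = 0.0941) and Relb (1.41, adjusted p = 0.0533) lost their calls by edgeR at folds still above 1 on the log2 scale. In NK cells 1 member was called with library totals, DESeq2, the replicate block or free RNA subtracted, and 285 genes were called with no filter and 98 with free RNA subtracted. DESeq2 called 157 genes in B cells and 347 in dendritic cells, and a stricter gate 991 in monocytes. Leaving out 1 library at a time, the called members ranged from 5 to 6 in T cells, 0 to 0 in B cells, 0 to 3 in NK cells, 5 to 7 in macrophages, 2 to 4 in monocytes, 1 to 2 in dendritic cells, 0 to 3 in neutrophils and 4 to 5 in all cells. Called genes then ranged from 410 to 609 in T cells, 111 to 401 in B cells, 48 to 289 in NK cells, 1634 to 4950 in macrophages, 868 to 1180 in monocytes, 244 to 629 in dendritic cells and 3983 to 6748 in all cells. The number of genes tested differed between these fits, so the member counts are no measure against all genes. In macrophages 4950 of 9984 tested genes were called without rhabdomyolysis replicate 2, and 1634 of 9382 without control replicate 2. In monocytes 920 of 3036 were called without rhabdomyolysis replicate 1, and 868 of 8410 without control replicate 2. In B cells 401 of 6287 were called without rhabdomyolysis replicate 3, and 111 of 3071 without control replicate 2. Members whose shares of cells did not overlap numbered 3 in B cells, 3 in macrophages and 3 in dendritic cells without thinning, and 1 in NK cells, 2 in monocytes and 1 in dendritic cells at 500 UMIs. Shares of cells were not computed for other genes, so these counts have no background. On the CPM scale, another measure, 23.3% of genes did not overlap in B cells and 23.7% in NK cells. There it was 49.6% in macrophages, 41.5% in monocytes and 42.2% in dendritic cells. The cause of the shifts between settings was not tested.

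The changes that turned sign were all uncalled. Nfkbie in B cells was -0.058 with library totals, -0.024 with DESeq2, -0.11 with no filter, -0.076 with the replicate block and -0.030 with a stricter gate. A stricter gate gave -0.026 for Rel in NK cells, 0.071 for Nfkb2 and -0.14 for Relb in monocytes. With free RNA subtracted, dendritic cells had Tnfaip3 at -0.82, Nfkb1 at 0.22 and Tnf at -0.28, but the estimate stood at its cap of 50% in both rhabdomyolysis libraries fitted, so these values are not a measured correction. Relb in all cells was -0.11 with library totals and -0.073 with the barcodes poor in Malat1 kept, where Nfkbiz in macrophages was -0.050. Leaving out 1 library at a time, the change ranged in B cells from -0.54 to 0.26 for Nfkbie and from -0.12 to 0.54 for Rel, and in NK cells from -0.47 to 0.16 for Nfkb1. The log2 change of Nfkbie in monocytes ranged from -0.58 to 0.40. In dendritic cells it ranged from -0.10 to 0.60 for Nfkbiz, from -0.82 to 0.18 for Nfkb1, from -0.14 to 0.57 for Nfkb2, from -0.33 to 0.32 for Rel and from -1.41 to 1.11 for Relb, each lowest without rhabdomyolysis replicate 3. In all cells it ranged from -0.11 to 0.038 for Rel and from -0.18 to 0.31 for Relb, and in neutrophils from -0.028 to 0.77 for Nfkbiz. The log2 change of Rel in neutrophils ranged from -0.41 to 1.68.

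Replicate numbers are shared between the groups, but no class had a correlation above 0.1 in all 3 same-numbered pairs (0.0843 to 0.203 in macrophages, the highest), so they were not taken to pair libraries. Every library correlated best with its own number in T cells, macrophages and all cells, a hint from the data only. The replicate block removed the calls of Nfkbie and Nfkb1 (0.67) in T cells and of Nfkbiz in NK cells. The stricter gate in dendritic cells, neutrophils with the minimum of cells, T cells with Cd4 only and monocytes with Ly6c2 could not be run for want of cells. Few UMIs limit Tnf in B cells (5 and 0) and NK cells (18 and 7), and most members in the 30 control neutrophils, though not Nfkbia (274).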
